A study of Mus musculus with 65 samples.

Results

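The genes of glucose uptake, glycolysis, pyruvate handling, the tricarboxylic acid (TCA) cycle and creatine kinase were followed in single outer hair cells (OHCs) of the mouse cochlea. The set was a named list of 40 genes, taken by symbol from the 55292 rows of the count table, and all 40 were found. A gene counted as measured where its level reached 5 counts per 1000000 counts (CPM) in the higher of the 2 groups, which 34 of the 40 genes did, against 10842 genes of the whole table. Every gene of the list is accounted for below, and the names are those of the deposited table.

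Transcripts had been counted in 65 OHCs picked by hand from the cochlea at postnatal day 10. The 17 cells of the Casz1 CKO group came from mice with Atoh1Cre/+ and Casz1flox/flox alleles, a design in which Cre made from the Atoh1 locus is meant to remove the floxed part of Casz1, a zinc finger transcription factor gene. For the WT group 48 cells were picked from mice that had neither Cre nor floxed Casz1. All 65 cells carried Slc26a5FlpO/+ and Rosa26FSF-H2BEGFP/+, a recombinase under the prestin gene and the nuclear green reporter that it switches on, so the presence of Cre also separates the groups. The shared protocol text mentions IHCs and iOHCs, but the sample titles and the design say OHCs, and these were followed. The labels name no animal, litter or batch and do not give the floxed exons, so Casz1 counts over the whole gene do not check the deletion and each genotype was treated as 1 sample. No test was possible on that footing, and every comparison below describes these cells, without a replicate check.

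Glycolysis breaks glucose down to pyruvate in the cytosol with a small gain of ATP. Pyruvate is then reduced to lactate by lactate dehydrogenase or carried into mitochondria, where pyruvate dehydrogenase turns it into acetyl-CoA for the TCA cycle, which feeds electrons to the respiratory chain. Creatine kinases pass phosphate between ATP and creatine, the mitochondrial enzyme near the site where ATP is made and the cytosolic one near the site where it is used. In the chick, brain-type creatine kinase is known as an abundant protein of hair bundles, and in mammals several of these steps are carried out by alternative enzymes from paralogous genes.

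CKO cells held 8239671 to 15320549 counts each (median 12269271) and WT cells 7458126 to 17107710 (median 11520603). The label was checked on marker genes: all 8 OHC markers were measured in both groups, with Ocm at 49172 CPM in CKO cells and 36667 CPM in WT cells and Slc26a5 at 1175 and 931 CPM. Markers of other cells differed by list. Of 7 macrophage markers 1 was measured, of 5 erythroid markers 0, of 4 endothelial markers 1, of 6 mesenchymal markers 2 and of 6 glial markers 2. Of 7 neuron markers 4 were measured, with per-cell sums of 135 to 1176 CPM (median 519) in CKO cells and 98.9 to 1433 CPM (median 463) in WT cells, most of it from Map2 and Snap25, while Rbfox3 was at 0 in CKO cells and at 0.018 CPM in WT cells. Of 5 stria vascularis markers 1 was measured, Atp1b2 at 146 CPM in CKO cells and 131 CPM in WT cells. The summed level of the 12 supporting cell markers, 7 of them measured, ran from 907 to 4313 CPM in CKO cells and from 1031 to 6033 CPM in WT cells, most of it from S100a1, and Sox2 was at 0 in CKO cells and at 0.29 CPM in WT cells. For the 7 inner hair cell markers, 4 of them measured, the sums were 0.121 to 321 CPM and 0.123 to 1159 CPM. Mitochondrially encoded genes took 2.50% to 9.58% of counts in CKO cells (median 4.76%) and 4.19% to 10.2% in WT cells (median 6.52%). The part of any of these in the results below was not tested.

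The WT group was uneven, and this touches many values. Cells with Xist counts and almost no counts of Y-linked genes numbered 15 of 17 in the CKO group and 9 of 48 in the WT group, so sex was largely confounded with genotype. WT cells 1 to 11, 12 to 45 and 46 to 48 stood apart from each other in an earlier look at a mitochondrial transcript, and cells 1 to 11 include 8 of the 9 Xist-pattern WT cells. Genotype ratios are therefore also given among Xist-pattern cells and against each run of WT cells. The comparisons share CKO cells, 15 of the 17 among Xist-pattern cells and all 17 elsewhere, and are not independent of each other.

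Taken as a whole, the pathway genes stood at a closely similar level in the 2 groups. Their summed counts came to 1.11% of all counts in CKO cells and 1.05% in WT cells, and per cell the sum ran from 7166 to 14176 CPM (median 10912) in CKO cells and from 7209.9 to 13777 CPM (median 10550.2) in WT cells, so the groups overlapped almost completely. Of the 34 measured genes 21 were higher in CKO cells and 13 lower, beside 50.4% of all genes higher, and other scalings of the totals put 19 to 23 on the higher side. The median log2 ratio of CKO over WT was 0.13 for the 34 genes and 0.0092 for all genes tested. Genes at least 2-fold apart numbered 5 (14.7%), against 29.5% of all genes, a smaller share. The 2 genes past 2-fold on the higher side were Ckmt1 and Eno1b, beside 15.1% of all genes, and the 3 on the lower side were Hk1, Eno2 and Pdk2, beside 14.5%. Among genes of at least 100 CPM, where 6.3% of the table was past 2-fold, Ckmt1 was the only one of 21, so 1 gene stood on the higher side, beside 3.27% of all genes, and 0 on the lower side, beside 3.04%.

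**Figure D1:**
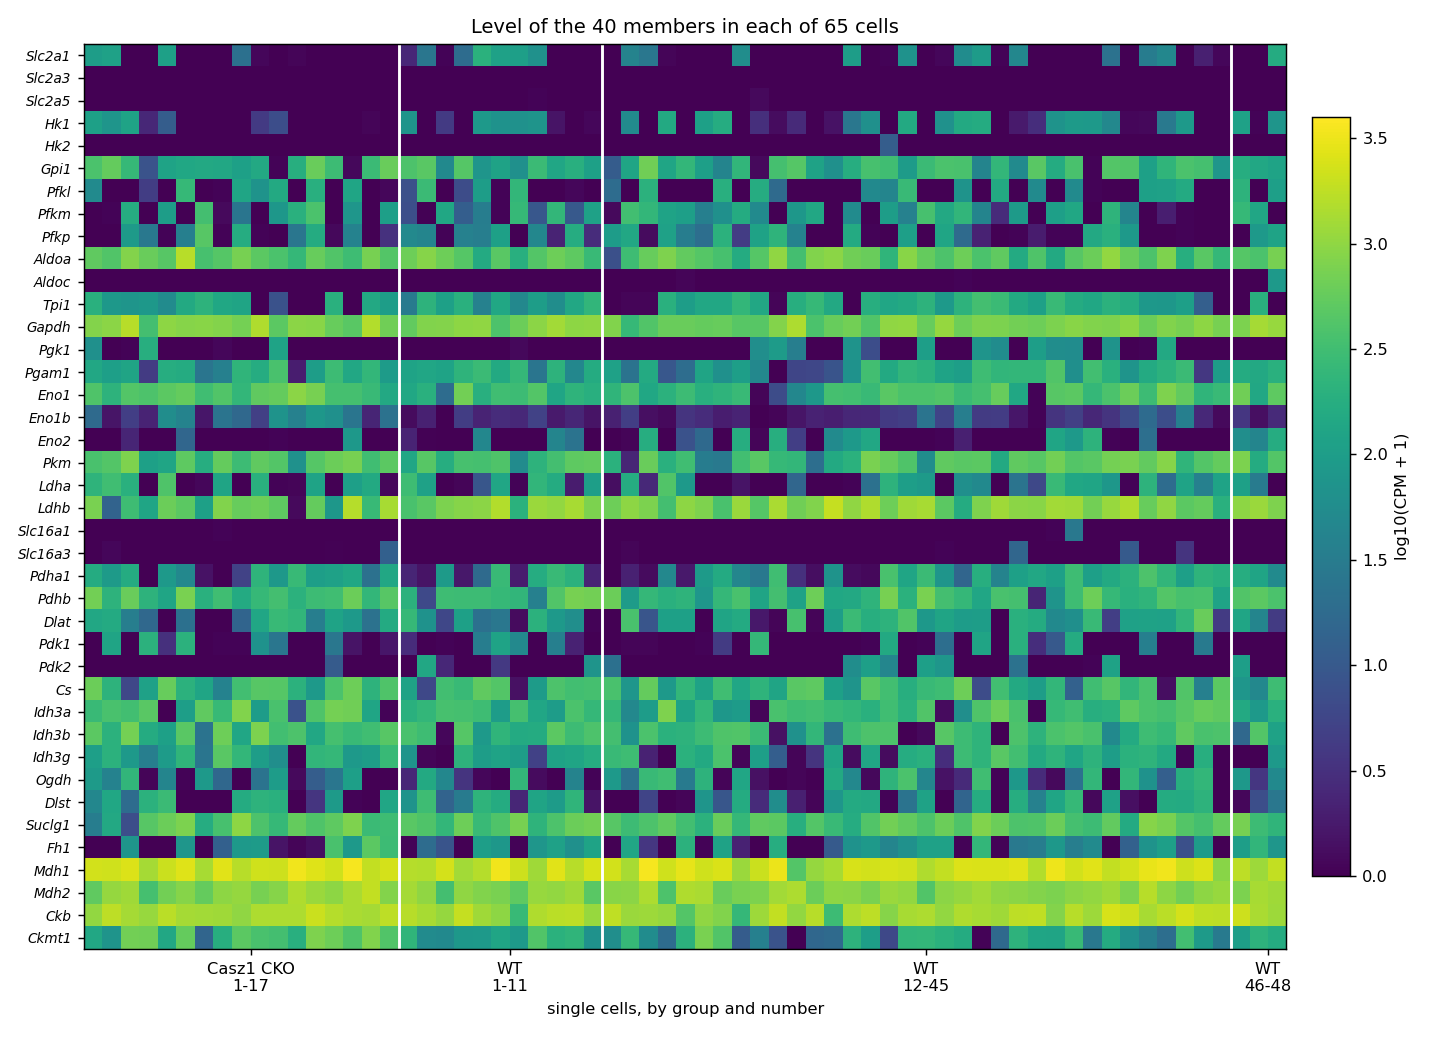
Level of each of the 40 genes (rows, in pathway order) in each of the 65 cells (columns, CKO cells at the left, then WT cells in 3 runs of cell numbers), as log10(CPM + 1). Mdh1, Mdh2, Ckb, Gapdh and Aldoa are bright in nearly every cell, while Slc2a3, Slc2a5, Hk2, Aldoc, Slc16a1 and Slc16a3 are dark in nearly every cell.

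Direction held for some genes across the comparisons and turned for most. In all 5 comparisons (all WT cells, Xist-pattern cells and the 3 runs of WT cells) 10 measured genes were higher in CKO cells, namely Aldoa, Eno1b, Ldha, Pdk1, Cs, Idh3a, Idh3b, Idh3g, Mdh1 and Ckmt1. Lower in all 5 were Ldhb, Pdk2 and Suclg1. The other 21 were higher in some and lower in others. The share of all genes that kept 1 direction was not computed, and the comparisons share WT cells as well as CKO cells. Some kept ratios came near 0, with Mdh1 down to 0.036 and Suclg1 up to -0.03. From medians of per-cell CPM, Aldoa, Cs, Idh3g and Mdh1 were lower in CKO cells. Past 2-fold among Xist-pattern cells were 5 genes, Pgk1, Eno1b, Pdk1, Pdk2 and Ckmt1, beside 43.4% of all genes. All but Pdk2 were higher, 4 genes beside 24.4% of all genes. Against WT cells 1 to 11 they were Slc2a1, Pgk1, Eno1b, Pdk2 and Ckmt1 (40.1% of all genes), and against WT cells 12 to 45 they were Hk1, Eno1b, Eno2, Pdk2, Ogdh and Ckmt1 (32.9%). Against the 3 cells of the last run 14 of 35 measured genes were past 2-fold, beside 55.1% of all genes, with 9 higher (33.9% of all genes) and 5 lower (21.2%). Differences between WT cells were of the same order: WT cells 12 to 45 over WT cells 1 to 11 put 5 of 34 genes past 2-fold, Slc2a1, Pgk1, Eno1b, Eno2 and Ogdh, beside 35.5% of all genes. Ckmt1 and Pdk2 were past 2-fold between genotypes in all 5 comparisons and within 2-fold between these 2 runs of WT cells, at log2 ratios of -0.13 and -0.29, but Pdk2 was more than 2-fold apart between WT cells 46 to 48 (35.2 CPM) and WT cells 12 to 45 (17.2 CPM).

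**Figure D2:**
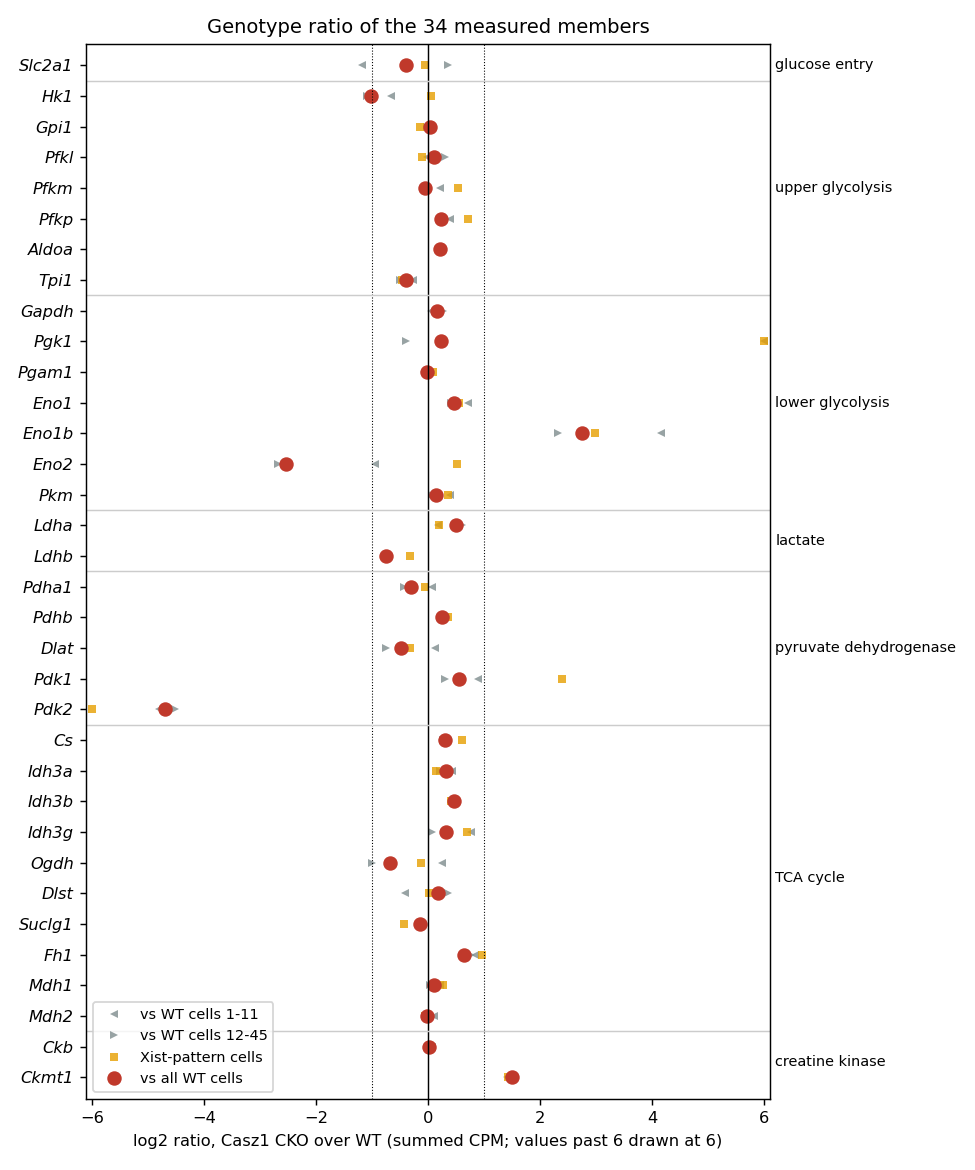
log2 ratio of CKO over WT for the 34 measured genes (rows, in pathway order), against all WT cells (red), among Xist-pattern cells (yellow) and against WT cells 1 to 11 and 12 to 45 (grey); dotted lines mark 2-fold and values past 6 are drawn at 6. Ckmt1 lies near 1.5 under each, while Hk1, Eno2, Pgk1 and Pdk1 spread widely.

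Of the listed genes of glucose entry only Slc2a1, the gene of the glucose transporter GLUT1, was measured. It stood at 21.98 CPM in CKO cells and 28.8 CPM in WT cells. Slc2a1 ran from 0 to 112 CPM (median 0) in CKO cells and from 0 to 201 CPM (median 0.0865) in WT cells, with a count in 6 of 17 and 26 of 48 cells. Most cells of both groups lay at or near 0 and the others overlapped. The log2 ratio was -0.39 (95% interval -0.44 to -0.34), 0.35 against WT cells 12 to 45 and -1.18 against WT cells 1 to 11. Such intervals cover counting error of the summed counts only. They leave out the spread between cells, which was far wider, and do not allow for several reads from 1 molecule. Slc2a3, the gene of the neuronal glucose transporter GLUT3, had no count in any cell. For the share of cells with a count, exact 95% intervals reached up to 19.5% in the CKO group and 7.40% in the WT group. These limits take cells as independent draws, which is not known here. The fructose transporter gene Slc2a5 had no count in CKO cells and 3 counts in 2 WT cells. Slc2a8, from the wider lists below and named after its values were seen, was at 36.9 CPM in CKO cells and 18.25 CPM in WT cells. Its log2 ratio was 1.01, with a count in 8 of 17 and 22 of 48 cells. Slc2a13 of the same lists was lower, at 3.25 and 10.8 CPM.

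Upper glycolysis, from hexokinase to triose phosphate isomerase, was close between the groups, at 1115 CPM summed over its genes in CKO cells and 1072 CPM in WT cells. Of 7 measured genes 4 were higher in CKO cells and 3 lower (3 and 4 with TMM scaling), beside 50.4% of all genes higher. Hk1, which encodes the hexokinase that binds mitochondria and traps glucose in the cell, stood at 21.3 CPM in CKO cells and 43.03 CPM in WT cells (log2 ratio -1.01, -1.06 to -0.97). Hk1 ran from 0 to 120.5 CPM (median 0) in CKO cells and from 0 to 166 CPM (median 2.56) in WT cells, with a count in 8 of 17 and 35 of 48 cells. The ranges overlapped throughout, and a CKO cell was higher than a WT cell in 35.4% of the 816 possible pairs of 1 CKO and 1 WT cell, ties counted as 0.5. The call was on the edge: leaving out any 1 of 32 cells, 14 CKO and 18 WT, put the ratio within 2-fold, with DESeq2 size factors it was -0.97, and among Xist-pattern cells it was 0.050. Hk2, the inducible hexokinase gene of muscle, had no count in CKO cells and 126 counts in 1 WT cell, so it did not count as measured.

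Phosphofructokinase, the enzyme at the main control point of glycolysis, was represented by all 3 of its subunit genes in both groups. Pfkm, the muscle subunit gene, was the leading one per length, at 23.6 CPM per kb of exon in CKO cells and 24.5 in WT cells. Pfkm ran from 0 to 379 CPM (median 24.3) in CKO cells and from 0 to 356 CPM (median 47.2) in WT cells, and the groups overlapped fully. Of the summed level per kb, Pfkm took 64.3% in CKO cells and 67.4% in WT cells, the liver gene Pfkl 23.7% and 22.3%, and the platelet gene Pfkp 11.9% and 10.3%. Their log2 ratios lay between -0.06 and 0.23. The mix in a single cell was far more uneven than the sum: a count of at least 10 was found for all 3 genes in 3 of 17 CKO cells and 7 of 48 WT cells, and for 2 of the 3 in 7 and 27 cells.

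Aldolase in these cells was aldolase A. Aldoa stood at 571 CPM in CKO cells and 489.6 CPM in WT cells, a log2 ratio of 0.22 (0.21 to 0.23) that stayed between 0.16 and 0.24 in the other comparisons. In CKO cells it ran from 247 to 1609 CPM with a median of 455, against 6.63 to 1048 CPM with a median of 471 in WT cells. The medians were thus in the other order than the sums, and the groups overlapped. Aldoc, the brain aldolase gene, had no count in CKO cells, against 1.82 CPM in WT cells, where 1 of 3 cells with a count held 99.8% of it. Gpi1, the gene of phosphoglucose isomerase, was at 229 and 224 CPM (log2 ratio 0.04), and the triose phosphate isomerase gene Tpi1 at 97.7 and 127.5 CPM (log2 ratio -0.38).

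Lower glycolysis, from Gapdh to pyruvate kinase, was slightly higher in CKO cells, at 1934 CPM summed over its genes against 1689.6 CPM in WT cells (log2 ratio 0.20). Of its 7 genes 5 were higher (6 with DESeq2 size factors), beside 50.4% of all genes. Gapdh, which encodes the dehydrogenase of the first step that yields NADH, was the leading gene per length, at 215 CPM per kb in CKO cells and 192 in WT cells. Gapdh ran from 328 to 1627 CPM (median 883) in CKO cells and from 253 to 1442 CPM (median 786) in WT cells, with a log2 ratio of 0.16. Every cell of both groups held it and the ranges overlapped. Pkm, the pyruvate kinase gene, was at 426 and 385 CPM (log2 ratio 0.14), and Pgam1, the phosphoglycerate mutase gene, at 149 and 151 CPM (-0.03).

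Pgk1, the X-linked gene of phosphoglycerate kinase, had a count in 5 of 17 CKO cells and 15 of 48 WT cells, at 20.7 and 17.6 CPM in sum. Its comparison turned on which WT cells were used. It stood at 23.5 CPM in Xist-pattern CKO cells and 0.024 CPM in Xist-pattern WT cells, at 0.013 CPM in WT cells 1 to 11, at 27.05 CPM in WT cells 12 to 45 and at 0 in the last run. The gene is hard to count: 53.9% of the 50-base stretches of its transcripts also occur in another gene, nearly all of them in the retrogene Pgk1-rs7. That copy took few counts itself, at 0.055 CPM in CKO cells and 0.077 CPM in WT cells. The sources used here do not say how reads with several matches were treated.

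The 3 enolase genes lay on both sides of 0, and the counts of 1 of them are uncertain because it shares most of its sequence with near copies. Eno1, the ubiquitous enolase gene, stood at 419 CPM in CKO cells and 306 CPM in WT cells (log2 ratio 0.46, 0.44 to 0.47). Its level ran from 149.8 to 942 CPM (median 408) in CKO cells and from 0.080 to 807 CPM (median 279) in WT cells. The groups overlapped, with the CKO cell higher in 69.5% of pairs. The ratio was 0.55 among Xist-pattern cells, 0.72, 0.41 and -0.05 against the 3 runs of WT cells in order.

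Eno1b, a near copy of Eno1 that GENCODE lists as protein coding, was at 27.3 CPM in CKO cells and 4.07 CPM in WT cells (log2 ratio 2.74, 2.67 to 2.82). Eno1b ran from 0.611 to 79.6 CPM (median 21.4) in CKO cells and from 0 to 35.4 CPM (median 1.61) in WT cells. The cells of each group fell into a low and a high part with a gap between them. In CKO cells 11 of 17 lay above 10 CPM, the lowest of these at 15.6 CPM and the next cell below at 3.86 CPM. In WT cells 4 of 48 lay above 10 CPM, with the gap between 17.1 and 6.16 CPM.

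Eno1b shared 76.4% of its 50-base stretches with transcripts of Eno1 and 85.2% with any other gene. The processed pseudogene Gm4735, which shared 63.0% of them, showed the same pattern at nearly the same level, 27.3 CPM in CKO cells and 3.51 CPM in WT cells (log2 ratio 2.96). Gm4735 lay above 10 CPM in exactly the same 11 CKO cells and 4 WT cells as Eno1b. Across cells the levels of Eno1b and Gm4735 had a Spearman correlation of 0.93 in the 17 CKO cells and 0.75 in the 48 WT cells, which share library, depth and any reads placed among the copies. Eno1b and Eno1 had one of 0.61 and 0.83. With Eno1 and Eno1b summed, the level was 447 CPM in CKO cells and 309.6 CPM in WT cells and the log2 ratio 0.53, and Eno1b made up 6.102% and 1.31% of that sum. Counts of Eno1b are therefore uncertain, and its place among the genes past 2-fold is given with that limit.

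Eno2, the neuronal enolase gene, was lower in CKO cells, at 5.58 CPM in CKO cells and 32.1 CPM in WT cells (log2 ratio -2.53, -2.61 to -2.44). Eno2 ran from 0 to 81.4 CPM (median 0) in CKO cells and from 0 to 213 CPM (median 0.0827) in WT cells, with a count in 4 of 17 and 26 of 48 cells. The CKO value came mostly from 1 cell: without CKO cell 15 the log2 ratio was -4.84. Among Xist-pattern cells it was 0.51, with 6.33 CPM in CKO cells and 4.43 CPM in WT cells, while WT cells 12 to 45 held 35.7 CPM and WT cells 1 to 11 held 10.7 CPM. Hardly any of its transcript sequence is shared with another gene.

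Of the 7 steps, that of lactate, with 2 dehydrogenase and 2 carrier genes, had the largest difference in its summed level, at 634 CPM in CKO cells and 956 CPM in WT cells (log2 ratio -0.59). Ldhb, the subunit gene of the heart type enzyme, which favours lactate oxidation, stood at 524 CPM in CKO cells and 878 CPM in WT cells (log2 ratio -0.74, -0.75 to -0.74). Ldhb ran from 0.239 to 1565 CPM (median 504) in CKO cells and from 160.5 to 1899.8 CPM (median 901) in WT cells. A CKO cell was the higher one in 24.5% of pairs. Below 300 CPM lay 7 of 17 CKO cells and 3 of 48 WT cells, and below 100 CPM 3 CKO cells and 0 WT cells, so the lower end was filled mainly by CKO cells while the upper ends overlapped. The ratio was -0.32 among Xist-pattern cells, with 587 CPM in CKO cells and 734 CPM in WT cells, and lay between -0.71 and -0.89 against the 3 runs of WT cells, which stood at 859, 877 and 970.2 CPM. A processed pseudogene, Gm5514, shares 20.99% of its 50-base stretches.

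Ldha, the gene of the muscle type subunit, which favours lactate formation, stood at 109 CPM in CKO cells and 77.1 CPM in WT cells (log2 ratio 0.50, 0.48 to 0.52). It was scattered over cells in both groups, from 0 to 407 CPM (median 106) in CKO cells and from 0 to 413 CPM (median 26.6) in WT cells. A CKO cell was higher in 53.8% of pairs, so single cells of both groups were mixed. Per kb of exon, Ldhb made up 91.0% of the pair in CKO cells and 96.0% in WT cells. Single cells with more than 90% Ldhb numbered 10 of 17 and 40 of 48, and 1 CKO cell was led by Ldha.

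The sequence before each start is shown for this pair, because the 2 genes of this enzyme lay on opposite sides of 0. The 250 bases before the RefSeq start (GRCm38.p6, the first of the listed starts in reading direction) run 5′ to 3′ on the strand of the gene, at chr7:46845554-46845803 on the plus strand for Ldha and chr6:142507958-142508207 on the minus strand for Ldhb. Capitals mark matches, on either strand, to ACGTG, the core of the element bound by hypoxia-inducible factors, and to CCAAT.
Ldha: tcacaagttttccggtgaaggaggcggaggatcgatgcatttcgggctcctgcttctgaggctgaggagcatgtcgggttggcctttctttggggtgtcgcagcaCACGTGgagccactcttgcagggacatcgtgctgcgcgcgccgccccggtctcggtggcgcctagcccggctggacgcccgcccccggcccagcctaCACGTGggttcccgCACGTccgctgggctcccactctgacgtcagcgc
Ldhb: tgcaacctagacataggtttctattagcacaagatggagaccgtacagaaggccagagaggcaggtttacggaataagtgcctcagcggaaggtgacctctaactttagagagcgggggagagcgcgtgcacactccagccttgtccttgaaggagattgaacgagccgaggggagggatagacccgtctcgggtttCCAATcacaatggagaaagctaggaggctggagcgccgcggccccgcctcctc

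Counted on both strands, where CACGTG gives a match on each, the Ldha window held 5 matches to ACGTG and the Ldhb window 0 of these and 1 to CCAAT. Of the 37 listed genes with a RefSeq window, 15 (40.5%) held ACGTG in 250 bases, against 18.5% of 27025 genes. CCAAT was in 16 of them (43.2%), against 37.5% of genes, and TATAAA, searched likewise, in 3 (8.11%), against 14.3%. Beside Ldha, genes with ACGTG included Slc2a1, Aldoa, Pgk1, Pgam1, Pkm and Mdh1, whose log2 ratios between genotypes lay on both sides of 0. A match describes letters in a window and is not a binding site.

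The listed lactate and pyruvate carriers of the monocarboxylate family, Slc16a1 and Slc16a3, were hardly counted. Slc16a1, the MCT1 gene, had 1 count in CKO cells and 0.597 CPM in WT cells, nearly all in 1 cell. Slc16a3, the MCT4 gene, was at 0.716 and 0.641 CPM with a count in 3 of 17 and 5 of 48 cells. Neither was measured at 5 CPM. A further gene of the family, Slc16a7, comes from the wider lists below and was named after its values were seen. Slc16a7 was measured, at 36.4 CPM in CKO cells and 35.8 CPM in WT cells, with a count in 12 of 17 and 28 of 48 cells.

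**Figure D3:**
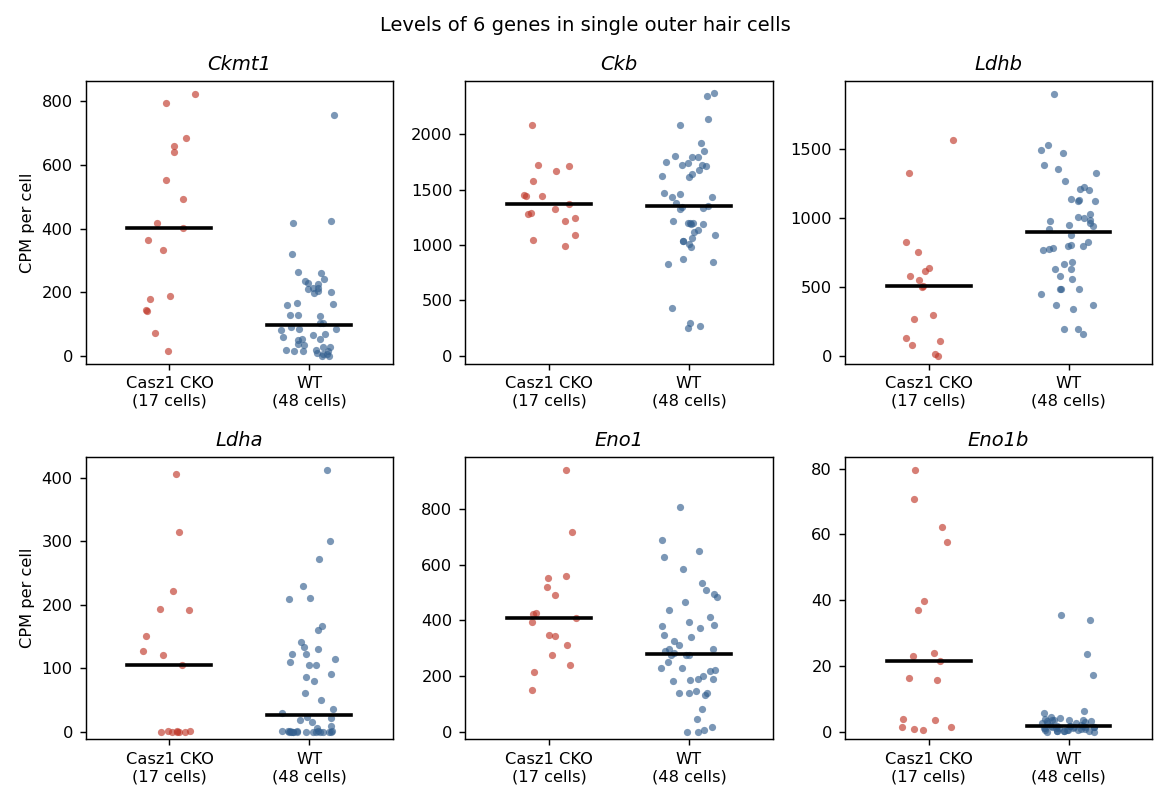
CPM of 6 genes in each of 17 CKO cells (red, left) and 48 WT cells (blue, right); bars are medians and each panel has its own linear axis. Ckmt1 lies higher in most CKO cells, Ckb has medians of 1371 and 1349 CPM, Ldhb reaches lower in CKO cells, and Eno1b is split into low and high cells.

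Pyruvate dehydrogenase subunit genes lay on both sides of 0, and with 2 kinase genes their step was close between the groups, at 584 CPM in CKO cells and 587 CPM in WT cells. Pdhb, the beta subunit gene of the E1 enzyme and the leading one per length, stood at 363 CPM in CKO cells and 305 CPM in WT cells (log2 ratio 0.25). Pdhb ran from 131 to 759 CPM (median 289) in CKO cells and from 1.36 to 761 CPM (median 257) in WT cells, which overlapped. Its X-linked partner Pdha1, the alpha subunit gene, was at 96.1 and 118 CPM (log2 ratio -0.30; -0.05 among Xist-pattern cells), and Dlat, the gene of the E2 acetyltransferase, at 84.9 and 119 CPM (-0.49).

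Pdk1 and Pdk2, the listed genes of kinases that switch pyruvate dehydrogenase off, were sparse. Pdk2 was at 0.756 CPM in CKO cells and 19.5 CPM in WT cells (log2 ratio -4.69, -4.93 to -4.46). Pdk2 ran from 0 to 9.86 CPM in CKO cells and from 0 to 142 CPM in WT cells, with a median of 0 in both, and was found in 1 of 17 and 14 of 48 cells. Without that 1 CKO cell, number 14, no count was left, and a floor of 3 counts over the group put the log2 ratio at -10.23 or lower. The groups overlapped at 0, where most cells of both lay. Levels of Pdk2 in WT cells were 21.03, 17.2 and 35.2 CPM in the 3 runs.

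Pdk1, a second kinase gene, was at 38.4 CPM in CKO cells and 26.1 CPM in WT cells (log2 ratio 0.55). Pdk1 ran from 0 to 207 CPM (median 0.541) in CKO cells and from 0 to 247 CPM (median 0) in WT cells, again with overlap. Among Xist-pattern cells it was at 41.3 and 7.91 CPM (log2 ratio 2.38). Of Pdk1 and Pdk2 together, per kb of exon, Pdk1 made up 95.4% in CKO cells and 35.3% in WT cells. By cell, Pdk1 led in 11 of 11 CKO cells that held either gene and in 19 of 30 such WT cells, the other 11 being led by Pdk2. Neither gene reached 10 counts in 10 of 17 CKO cells and 22 of 48 WT cells, so some of these leads rest on very few counts.

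TCA cycle genes were a little higher in CKO cells in sum, at 5019.7 CPM over the step against 4631 CPM in WT cells (log2 ratio 0.12). On that side were 7 of 10 genes (8 with DESeq2 size factors), beside 50.4% of all genes. Past 2-fold were 0, beside 29.5%. Of the 7 higher genes Cs, Idh3g, Fh1 and Mdh1 were lower in CKO cells by medians of per-cell CPM. Per cell the sum ran from 2867 to 7541 CPM (median 5088) in CKO cells and from 2897 to 6962 CPM (median 4637) in WT cells. A CKO cell was higher in 60.9% of pairs, so the groups overlapped widely.

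Cs, the gene of citrate synthase at the entry of the cycle, was at 310.2 CPM in CKO cells and 251 CPM in WT cells (log2 ratio 0.31), though its medians over single cells were 214 and 258 CPM. All 3 subunit genes of the NAD-dependent isocitrate dehydrogenase were higher in their sums. Idh3a stood at 333 CPM in CKO cells and 267 CPM in WT cells (log2 ratio 0.32), Idh3b at 359.9 and 261 CPM (0.46) and Idh3g at 156 and 124 CPM (0.33). Idh3b, the leading one per length, ran from 22.8 to 779 CPM (median 322) in CKO cells and from 0 to 518 CPM (median 289) in WT cells. The groups overlapped, and 61.4% of pairs had the CKO cell higher. Per kb, Idh3b made up 46.03% of the 3 in CKO cells and 43.6% in WT cells, Idh3a 28.7% and 30.1%, and Idh3g 25.3% and 26.3%. All 3 genes reached 10 counts in 14 of 17 CKO cells and 29 of 48 WT cells. Idh3g is X-linked. Its medians over cells were 99.6 CPM in CKO cells and 123 CPM in WT cells, its log2 ratio against WT cells 12 to 45 was 0.07, and it stood at 155 CPM in Xist-pattern CKO cells and 95.6 CPM in Xist-pattern WT cells.

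Later steps gave no common direction. The oxoglutarate dehydrogenase gene Ogdh was at 48.5 CPM in CKO cells and 77.7 CPM in WT cells (log2 ratio -0.68), at 0.25 against WT cells 1 to 11 and at -1.004 against WT cells 12 to 45. Without CKO cell 3, the ratio of Ogdh was -1.12, past 2-fold. Dlst, the gene of the E2 unit of the same complex, was at 89.8 and 79.8 CPM (0.17), and Suclg1, a subunit gene of succinyl-CoA ligase, at 410.1 and 452 CPM (-0.14). Fh1, the fumarase gene, was at 94.5 and 60.6 CPM (0.64), but a CKO cell was higher in only 46.8% of pairs. When its CPM values were added over the CKO cells, 1 cell held 31.04% of that sum.

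Malate dehydrogenase stood out by its level. Mdh1, the gene of the cytosolic enzyme of the malate-aspartate shuttle, had the highest level per length of all 40 genes, at 884 CPM per kb in CKO cells and 816 in WT cells. Mdh1 ran from 1309 to 3512 CPM (median 2207) in CKO cells and from 439 to 3599.7 CPM (median 2220.2) in WT cells, with a log2 ratio of 0.11. The groups overlapped fully. Mdh2, its mitochondrial counterpart, was at 949 and 962 CPM (-0.02). Mdh1 made up 76.8% of the pair per kb in CKO cells and 75.1% in WT cells.

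Of all 40 genes the mitochondrial creatine kinase gene separated single cells of the 2 groups most often, while the cytosolic one was close between them. Ckmt1, the gene of the ubiquitous mitochondrial creatine kinase (chr2:121357714-121363737, plus strand, GRCm38), stood at 394 CPM in CKO cells and 140.3 CPM in WT cells, a log2 ratio of 1.49 (1.48 to 1.51) or 2.81-fold. Ckmt1 ran from 14.1 to 823 CPM (median 402) in CKO cells and from 0 to 757 CPM (median 97.1) in WT cells. The ranges overlapped, yet 15 of 17 CKO cells lay above the WT median and 3 of 48 WT cells above the CKO median. Above 300 CPM were 11 of 17 CKO cells and 4 of 48 WT cells, and a CKO cell was the higher one in 80.8% of pairs. For Eno1b, whose counts are uncertain, that share was close to this, at 79.5%.

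Its ratio was close to this in each of the 5 comparisons. Among Xist-pattern cells Ckmt1 stood at 383 CPM in CKO cells and 143 CPM in WT cells (log2 ratio 1.42), and the 3 runs of WT cells stood at 148, 135 and 159.9 CPM, for log2 ratios between 1.30 and 1.55. None of its 50-base stretches occurs in another gene, and its exons overlap those of another gene, Strc on the opposite strand, by 10 bases only. Strc itself was at 255 CPM in CKO cells and 287 CPM in WT cells.

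Ckb, the gene of the cytosolic brain-type creatine kinase (chr12:111669361-111672338, minus strand), was at 1397 CPM in CKO cells and 1387 CPM in WT cells (log2 ratio 0.01, 0.0047 to 0.017, with a sign that turned under TMM and without mitochondrially encoded and ribosomal genes). Ckb ran from 990.3 to 2079 CPM (median 1371) in CKO cells and from 252 to 2373 CPM (median 1349) in WT cells. All CKO cells lay within the range of the WT cells, and the CKO cell was higher in 52.0% of pairs. Per kb of exon Ckmt1 made up 24.7% of the pair in CKO cells and 10.5% in WT cells. By cell that share ran from 1.29% to 42.7% (median 22.6%) and from 0% to 46.6% (median 7.01%), and Ckb led in every cell of both groups. Both genes had a TATAAA match before their RefSeq start, ending 23 bases before it in Ckb and 26 bases before it in Ckmt1, and of the 37 genes with a window Eno2 alone also held one. The 30 bases around it are given 5′ to 3′ on the strand of each gene with the match in capitals, at chr12:111672349-111672378 on the minus strand for Ckb and chr2:121357733-121357762 on the plus strand for Ckmt1, where the letters match on the opposite strand and the earliest GENCODE transcript begins upstream of the match.
Ckb: gaatgaatgggcTATAAAtagccgccaatg
Ckmt1: cctcctcctctcTTTATAttccccctccag

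**Figure D4:**
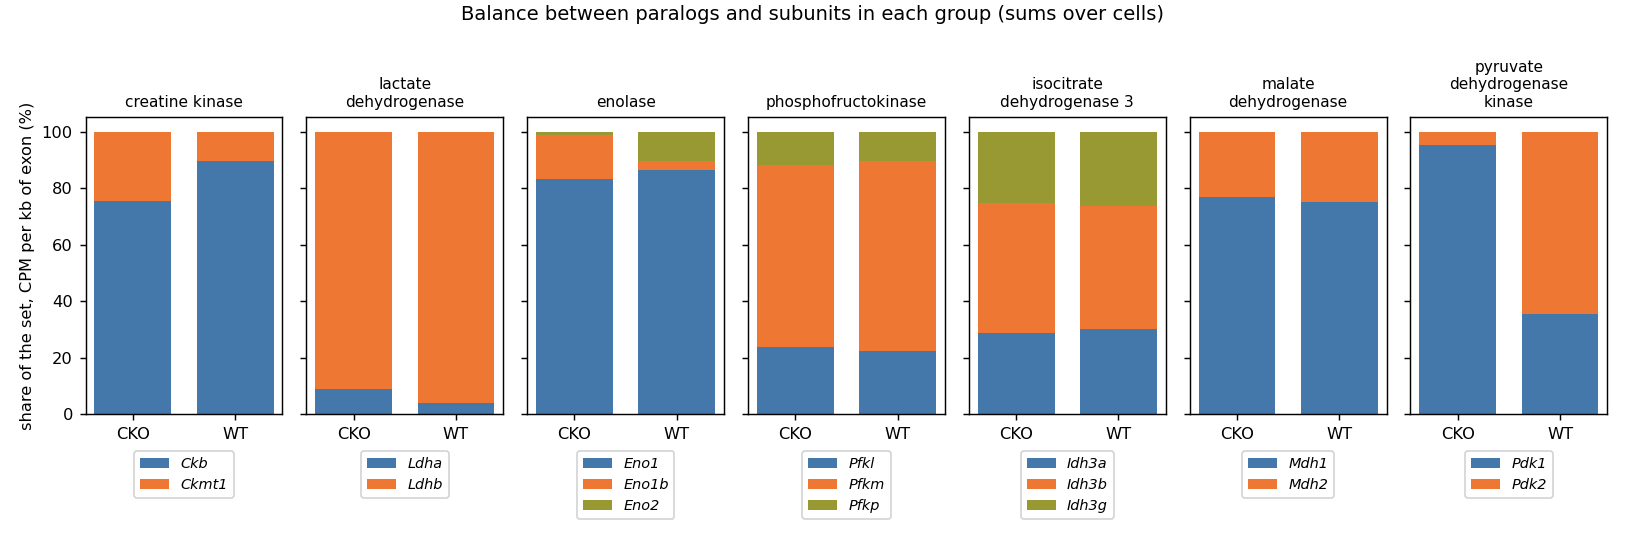
Share (%) of each gene in the summed CPM per kb of exon of its paralog or subunit set, in CKO cells (left bar) and WT cells (right bar). The Ckmt1 share is 24.7% against 10.5% and the Ldhb share 91.0% against 96.0%, while the shares of phosphofructokinase, isocitrate dehydrogenase 3 and malate dehydrogenase differ little; the Pdk1 and Pdk2 bars rest on few cells.

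In all 65 cells a count was found for 12 of the genes: Gpi1, Aldoa, Gapdh, Eno1, Pkm, Ldhb, Pdhb, Cs, Suclg1, Mdh1, Mdh2 and Ckb. Spread between cells was wide even for these. The coefficient of variation was 19.9% in CKO cells and 36.2% in WT cells for Ckb, 26.1% and 33.4% for Mdh1, 41.2% and 32.6% for Gapdh, and 85.0% and 43.9% for Ldhb. Over the 136 pairs among the 17 genes of at least 100 CPM in both groups, the median Spearman correlation across cells was 0.098 in the 17 CKO cells and 0.076 in WT cells 12 to 45, beside 0.0025 and 0.0017 for pairs of 1670 genes at that level, all close to 0. Mdh1 and Mdh2 had one of 0.45 and 0.33 in the same cells, but of 0.0697 over all 48 WT cells, and Ckmt1 and Ckb one of -0.0025 in CKO cells, 0.13 in WT cells 12 to 45 and 0.15 over all WT cells.

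Other genes of the same pathways, 129 on 7 lists, were looked up for context, and 89 were measured. Of these 44 were higher in CKO cells and 45 lower, 9 and 11 of them past 2-fold, beside 15.1% and 14.5% of all genes. Past 2-fold higher and lower were 2 and 1 of 7 creatine and phosphotransfer genes, 1 and 3 of 11 glycolysis genes, 1 and 1 of 8 transporters, and 3 and 3 of 29 pyruvate dehydrogenase and TCA cycle genes. Among other creatine and phosphotransfer genes 4 of 7 measured were higher. The creatine transporter gene Slc6a8 was at 13.0 CPM in CKO cells and 3.95 CPM in WT cells, with a count in 3 of 17 and 12 of 48 cells, and the adenylate kinase gene Ak5 at 5.10 and 18.4 CPM. Ak1, another adenylate kinase gene, chosen here after its values were seen, stood at 302 CPM in CKO cells and 147 CPM in WT cells (log2 ratio 1.04) and was higher in the CKO cell in 75.6% of pairs.

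Among other glycolysis genes 6 of 11 measured were higher. Pfkfb genes, whose enzymes set the level of the phosphofructokinase activator fructose 2,6-bisphosphate, were all on the higher side where measured: Pfkfb1 at 30.6 CPM in CKO cells and 7.95 CPM in WT cells, Pfkfb2 at 136 and 87.7 CPM, and Pfkfb4 at 44.1 and 34.1 CPM, while Pfkfb3 did not reach 5 CPM. Against WT cells 46 to 48 the log2 ratio of Pfkfb4 was -0.84. The muscle enolase gene Eno3 was at 0.976 and 7.79 CPM. Among transporters 5 of 8 were higher, with the pyruvate carrier genes Mpc1 at 165 and 173 CPM and Mpc2 at 232 and 223 CPM, Bsg, the chaperone gene of monocarboxylate carriers, at 1052 and 1014 CPM, and Slc2a13 at 3.25 and 10.8 CPM.

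Among other pyruvate dehydrogenase and TCA cycle genes 16 of 29 measured were higher. The shared E3 subunit gene Dld was at 233 CPM in CKO cells and 204 CPM in WT cells. Past 2-fold lower were Idh1, which encodes the cytosolic NADP-dependent isocitrate dehydrogenase, at 17.3 and 83.4 CPM, Suclg2 at 0.791 and 8.92 CPM, and Pdp1, a phosphatase gene of pyruvate dehydrogenase, at 0.015 and 7.44 CPM with a count in 3 of 17 and 6 of 48 cells. Past 2-fold higher were Slc25a10, a mitochondrial dicarboxylate carrier gene, at 28.7 and 8.52 CPM, Ogdhl at 18.6 and 4.74 CPM, and Idh2, named after its values were seen, at 15.2 and 5.62 CPM.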

How the data were processed

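Single OHCs had been copied with the Smart-Seq HT kit, which reads full-length cDNA and adds no molecular identifiers, per the labels' protocols. The authors deposited a single table with raw counts, in whole numbers, for each gene in each cell. Per the submitters' processing notes HISAT2 2.2.1, StringTie 2.2.1 and featureCounts 2.0.1 were used on mm10; the sources used here do not name the annotation, strand setting or filters. All 65 columns matched 1 title each, and no 2 columns were identical. Members and lists were chosen with earlier results of these data known.

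For each group the counts of its cells were added up and expressed per 1000000 of their joint total (CPM). The log2 ratio carries an exact conditional Clopper-Pearson interval at 95%, for counting error only. Past 2-fold means an absolute log2 ratio of at least 1 where the higher group reached 5 CPM, and a group without counts was set to 3 counts. Named with values per cell are members past 2-fold, the leading member per kb of exon in each step or paralog set, and both creatine kinases. From the wider lists up to 12 genes past 2-fold by absolute ratio and a fixed set of partners (Pfkfb1 to Pfkfb4, Mpc1, Mpc2, Dld, Bsg, Slc6a8) are named; some genes that this rule names are not reported here. Exon lengths and shared 50-base stretches came from GENCODE M21, and upstream sequence from RefSeq.

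No cell was removed and no doublet caller was run, since cells were picked singly. The Xist pattern means at least 10 Xist counts with a sum below 10 for the Y-linked genes Ddx3y, Uty, Kdm5d and Eif2s3y. The limits of the WT runs come from an earlier look at mt-Co2. Alternatives were edgeR 4.0.16 TMM factors, DESeq2 1.42.0 size factors, totals that leave out ribosomal protein genes and mitochondrially encoded genes, the mean or median of per-cell CPM, subsets of cells, leaving out each cell, thinning, other filters, and Eno1 with Eno1b summed. Values were computed with Python 3.11.15, pandas 2.3.3 and scipy 1.17.1, and the steps were tested on simulated counts.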

Additional observations from a re-analysis of the deposited data

How the results depend on the processing

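The count past 2-fold on the higher side was 2, and 4 among Xist-pattern cells, 9 against WT cells 46 to 48, 1 among members of at least 100 CPM (a filter chosen after seeing the data) and 1 with Eno1 and Eno1b summed. The count on the lower side was 3, and 1, 5 and 0 under the first 3 of these and 6 over all members with a count. It was also 2 with DESeq2 size factors (Hk1 then at -0.97), against WT cells 1 to 11 and among cells with at least 6000 genes, and 4 against WT cells 12 to 45. Leaving out each of 65 cells gave 2 on the higher side throughout and 2 to 4 on the lower side, and a median log2 ratio of 0.061 to 0.16 against 0.13. That median was -0.00836 from medians of per-cell CPM and -0.049 against WT cells 46 to 48, and above 0 elsewhere. Hk1 turned to 0.050 and Eno2 to 0.51 among Xist-pattern cells. The cause was not tested. Of 402 ratios of measured members under alternatives 53 changed sign; Eno1b, Ldha, Ldhb, Pdk1, Pdk2, Idh3a, Idh3b, Suclg1 and Ckmt1 never did. edgeR TMM, DESeq2 size factors and the total without mitochondrially encoded and ribosomal genes moved log2 ratios by -0.043, 0.042 and -0.032, enough to turn members near 0 such as Pgam1, Mdh2 and Ckb. No paired analysis was possible because a cell number is only a name and nothing was tested. Depth limits members below 5 CPM, and the number of animals is unknown.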

Other observations

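Further lists of related genes were read beside all genes tested, whose median log2 ratio was 0.0092. Of 10 pentose phosphate genes 7 were measured, 3 higher in CKO cells and 4 lower, 0 of them past 2-fold, with a median log2 ratio of -0.044. Of 13 glycogen genes 11 were measured, 4 higher and 7 lower (median -0.33). Of 24 genes of the hypoxia-inducible factor pathway and of energy sensing 16 were measured, 6 higher and 10 lower (median -0.35). Vhl, which encodes the factor that marks hypoxia-inducible factors for breakdown, was at 30.6 CPM in CKO cells and 4.93 CPM in WT cells, with a count in 4 of 17 and 8 of 48 cells. Past 2-fold lower, and named after their values were seen, were the mitochondrial transcription factor gene Tfam at 16.1 and 44.5 CPM, the nuclear receptor gene Esrra at 10.1 and 22.9 CPM, and Bnip3 at 34.1 and 77.1 CPM. On none of these 3 lists was the share past 2-fold above the 29.5% of all genes, and no test was run.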
